A study of Mus musculus with 6 samples.

Results

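The mitochondrial solute carriers of the SLC25 family were followed in the luminal epithelium of the mouse uterus across the onset of embryo implantation. The members were taken by symbol: all genes named Slc25a followed by a number, and the uncoupling proteins Ucp1, Ucp2 and Ucp3, which gave 45 of the 21740 genes measured (42 Slc25a genes and 3 Ucp genes, on 50 rows of the array table). Wild type females of C57BL6/129svj mixed background, 2 to 4 months old, were mated naturally with wild type males, and uteri were taken on gestation day 3.5 (D3.5, blastocysts present in the uterus, before implantation) or gestation day 4.5 (D4.5, implantation sites present). Both groups were wild type and untreated, and differed in gestation day. The epithelium was loosened with dispase and scraped from the remaining uterine wall, and its total RNA was labelled with biotin and measured on 1-colour Affymetrix arrays, 3 for D3.5 and 3 for D4.5. The labels do not say whether each array stood for a separate animal, so the p-values reflect how far these arrays spread around their day means, a spread that may be only technical.

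SLC25 carriers are membrane proteins, nearly all of the mitochondrial inner membrane, that exchange metabolites, nucleotides, cofactors and ions between the matrix and the cytosol. They let ATP leave and ADP and phosphate enter, carry citrate out for lipid synthesis, move the reducing power of NADH by the malate-aspartate shuttle, and bring acylcarnitines, amino acids and iron in. The uncoupling protein branch, named after the proton leak of brown fat, is expressed in a wide range of tissues. At implantation the luminal epithelium is the cell layer that the blastocyst attaches to, after it has passed from a non-receptive to a receptive state under ovarian hormones.

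Of the 45 carriers, 13 were higher and 10 lower on D4.5 at an adjusted p under 0.05 (limma, Benjamini-Hochberg over all genes), and 22 did not pass. The background was high: 44.4% of all genes passed this test, 18% higher and 26.4% lower, against 51.1% of the carriers, 28.9% higher and 22.2% lower. Changes of at least 2-fold were rarer, at 5.5% of all genes (3.04% higher, 2.46% lower). They were found in 3 carriers: Slc25a15 and Slc25a45 rose and Slc25a1 fell. On the log2(intensity + 16) scale after quantile normalization, which is used for all levels and changes below, the median change of the carriers was 0.11 and that of all genes -0.07. The median size of a change, regardless of sign, was 0.28 for the carriers and 0.24 for all genes. The arrays of the days did not overlap in 28 of the 45 carriers and in 12743 of the 21740 genes, so a lack of overlap was common. Without D4.5 replicate 1 or without D4.5 replicate 2, 5 carriers passed as lower, and without D3.5 replicate 3, 6 did. The median of the carriers was 0.046 without D3.5 replicate 1. The direction of the calls also moved with the scaling: 22 carriers were higher and 6 lower when the arrays were centred on their medians, and 6 were higher and 16 lower when the deposited values were compared with no scaling. The background moved too. Of all 21740 genes, 6093 were higher and 4264 lower after median centring, and 2483 were higher and 13431 lower with no scaling.

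A gauge of dim probes was taken from 1340 odorant, vomeronasal and taste receptor genes, which are not known for expression in the uterus. Their 95th percentile lay at 6.55 on D3.5 and 6.36 on D4.5, and 95% of their changes fell between -0.59 and 0.33. At or under that level on both days were 7 carriers: Slc25a2, Slc25a21, Slc25a31, Slc25a34, Slc25a41, Ucp1 and Ucp3. Slc25a14, Slc25a35 and Slc25a40 were there on D3.5 alone, and the other 35 carriers stood above it on both days. Of the receptor genes, 30.1% passed the adjusted p, 78 of them higher and 325 lower, so a call alone does not separate a carrier from dim genes. Changes outside the receptors' 95% range were found in 11 carriers (24.4%), against 23.2% of all genes. Of these, 9 were higher (Slc25a5, Slc25a15, Slc25a22, Slc25a25, Slc25a35, Slc25a37, Slc25a40, Slc25a45 and Ucp1) and 2 lower (Slc25a1 and Slc25a33). The plot of carrier changes shows them by role.

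**Figure D1:**
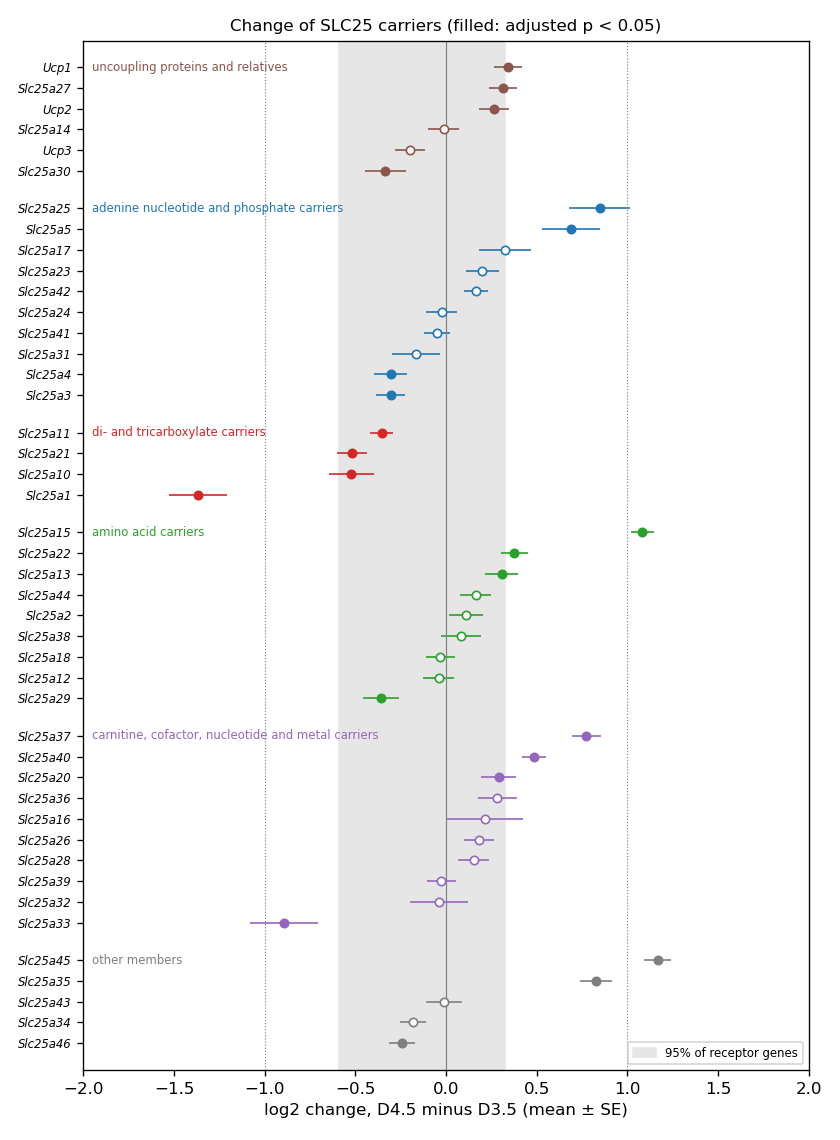
Change of the carriers named in the text from D3.5 to D4.5 (log2, mean ± SE, 3 arrays a day), grouped by role; filled points passed an adjusted p under 0.05, the grey band holds 95% of the receptor genes' changes and dotted lines mark 2-fold. Slc25a1 lies farthest to the left at -1.37, Slc25a45 and Slc25a15 farthest to the right at 1.17 and 1.08, and the 4 di- and tricarboxylate carriers all lie left of 0, of which Slc25a11 moves to 0.19 when arrays are centred on their medians.

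The promoters of the 3 carriers that changed by at least 2-fold are shown because they are the members with the largest changes. Each is a stretch of 300 bases around a gene's start, most of it before the start, 5′ to 3′ on the gene's strand, from RefSeq on build GRCm38.p6, in which 35 of the 45 carriers matched with 44 promoters. Capitals mark the E-box letters CACGTG and the CCAAT box, searched on both strands (CCAAT reads ATTGG on the other strand). Slc25a1 lies on the minus strand at chr16:17928170-17928469, Slc25a15 on the minus strand at chr8:22398228-22398527, and Slc25a45 on the plus strand at chr19:5877572-5877871.
Slc25a1: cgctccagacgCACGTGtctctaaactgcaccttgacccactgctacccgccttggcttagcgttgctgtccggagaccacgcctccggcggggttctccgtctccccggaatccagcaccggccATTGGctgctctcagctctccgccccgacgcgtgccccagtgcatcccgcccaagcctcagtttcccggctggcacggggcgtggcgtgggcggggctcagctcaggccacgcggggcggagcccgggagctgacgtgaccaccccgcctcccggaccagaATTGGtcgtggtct
Slc25a15: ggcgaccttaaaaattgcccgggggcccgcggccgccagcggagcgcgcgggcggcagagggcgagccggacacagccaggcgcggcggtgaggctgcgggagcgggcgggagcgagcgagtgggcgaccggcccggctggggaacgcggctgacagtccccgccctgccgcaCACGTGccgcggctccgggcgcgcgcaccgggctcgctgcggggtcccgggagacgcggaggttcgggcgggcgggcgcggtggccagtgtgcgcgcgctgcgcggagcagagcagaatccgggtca
Slc25a45: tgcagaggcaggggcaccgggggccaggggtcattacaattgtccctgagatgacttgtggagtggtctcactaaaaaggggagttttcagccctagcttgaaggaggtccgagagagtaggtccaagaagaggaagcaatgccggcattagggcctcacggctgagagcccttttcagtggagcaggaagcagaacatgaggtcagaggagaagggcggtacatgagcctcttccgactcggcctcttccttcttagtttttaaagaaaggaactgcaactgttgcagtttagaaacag
The Slc25a1 promoter held 1 CACGTG and 2 CCAAT boxes. The Slc25a15 promoter shown held 1 CACGTG and no CCAAT, and a promoter of the same gene from another start, at chr8:22398572-22398871, held neither. The Slc25a45 promoter held neither. Among all 32851 promoters of this length, CACGTG occurred in 7.15% and CCAAT in 37.4%. Among the 44 carrier promoters they occurred in 18.2% (8 promoters of 7 carriers) and 45.5% (20 promoters of 17 carriers). The 7 carriers with CACGTG included members that rose (Slc25a13, Slc25a15), members that fell (Slc25a1, Slc25a33) and members that did not pass (Slc25a14, Slc25a31, Slc25a36). A match describes these letters and was not read as a binding site.

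The 4 carriers of di- and tricarboxylates all passed as lower on D4.5, as did 26.4% of all genes, and 1 of them, Slc25a21, was at receptor level on both days. Their median change was -0.52 against -0.07 over all genes. All 4 were also below 0 on the unscaled values, but not all 4 were when arrays were centred on their medians. Slc25a1, the citrate carrier that exports mitochondrial citrate for fatty acid and sterol synthesis, measured 9.66, 10.30 and 10.23 on the D3.5 arrays (replicates 1 to 3) and 8.71, 8.65 and 8.73 on the D4.5 arrays. All D3.5 arrays lay above all D4.5 arrays, with replicate 1 the lowest of its day. The change was -1.37 ± 0.16 (SE, 3 arrays a day; adjusted p = 0.00065), a 2.58-fold fall. It was -1.57 without D3.5 replicate 1 and -0.94 after median centring, both past the test.

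Slc25a10, the dicarboxylate carrier that exchanges malate or succinate for phosphate, measured 9.31, 9.74 and 9.72 on D3.5 and 9.01, 9.03 and 9.16 on D4.5. The days did not overlap, and D3.5 replicate 1 was again the nearest to D4.5. Its change of -0.52 ± 0.12 (adjusted p = 0.0126) was -0.07 after median centring, which did not pass. Slc25a11, the oxoglutarate-malate carrier of the malate-aspartate shuttle, measured 11.30, 11.33 and 11.25 on D3.5 against 10.91, 10.96 and 10.94 on D4.5. These arrays were close within each day and apart between days, with a change of -0.35 ± 0.06 (adjusted p = 0.00388), yet the value turned to 0.19 after median centring (adjusted p = 0.287) and did not pass on the unscaled values either (-0.24, adjusted p = 0.1). Slc25a21, which carries oxoadipate and other oxodicarboxylates in lysine and tryptophan breakdown, fell by 0.52 (adjusted p = 0.00225), but no array was above 5.72, and all lay at the level of the receptor genes.

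Among the 10 adenine nucleotide and phosphate carriers, 2 were higher and 2 lower (20% each, against 18% and 26.4% of all genes). The adenine nucleotide translocators Slc25a5 and Slc25a4 went opposite ways. Slc25a5 (ANT2), the ADP/ATP exchanger of proliferating cells, measured 9.80, 10.34 and 10.45 on D3.5 and 10.90, 10.89 and 10.86 on D4.5. Every D4.5 array was above every D3.5 array, and D3.5 replicate 1 stood below its 2 companions. The change was 0.69 ± 0.16 (adjusted p = 0.0114), 0.49 without that array and 1.19 after median centring. This gene has 3 rows in the table, and near-identical copies of it exist in the genome, so its level may hold signal of those copies. Slc25a4 (ANT1), the exchanger of heart and skeletal muscle, had a change of -0.31 (adjusted p = 0.0302) that passed with all 6 arrays but was lost when any of 5 of the 6 arrays was left out, all but D3.5 replicate 2 (adjusted p 0.0527 to 0.0957), and that was 0.13 after median centring. Slc25a31 (ANT4), the germ cell form, was at receptor level on both days (-0.17, not passed).

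Slc25a3, the carrier that supplies phosphate for ATP synthesis, measured 11.31, 11.06 and 11.22 on D3.5 and 10.86, 10.90 and 10.90 on D4.5, the days not overlapping. It fell by 0.31 (adjusted p = 0.0195), but the call was lost on leaving out D3.5 replicate 3, D4.5 replicate 1 or D4.5 replicate 2 (adjusted p 0.0595, 0.0612 and 0.0601) and the value was 0.26 after median centring. Of the calcium-regulated ATP-Mg/phosphate carriers, which set the adenine nucleotide content of the matrix, Slc25a25 alone passed. It measured 7.98, 8.07 and 8.10 on D3.5 and 9.13, 8.47 and 9.08 on D4.5. Replicate 2 of D4.5 lay between the D3.5 arrays and its own companions. The change was 0.85 ± 0.17 (adjusted p = 0.00615), and 1.06 without that array. Its relatives Slc25a24 (-0.02) and Slc25a23 (0.20) did not pass, and Slc25a41 (-0.05) was at receptor level. Slc25a42, the carrier of coenzyme A into the matrix (0.17), and the peroxisomal Slc25a17 (0.33) did not pass either.

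**Figure D2:**
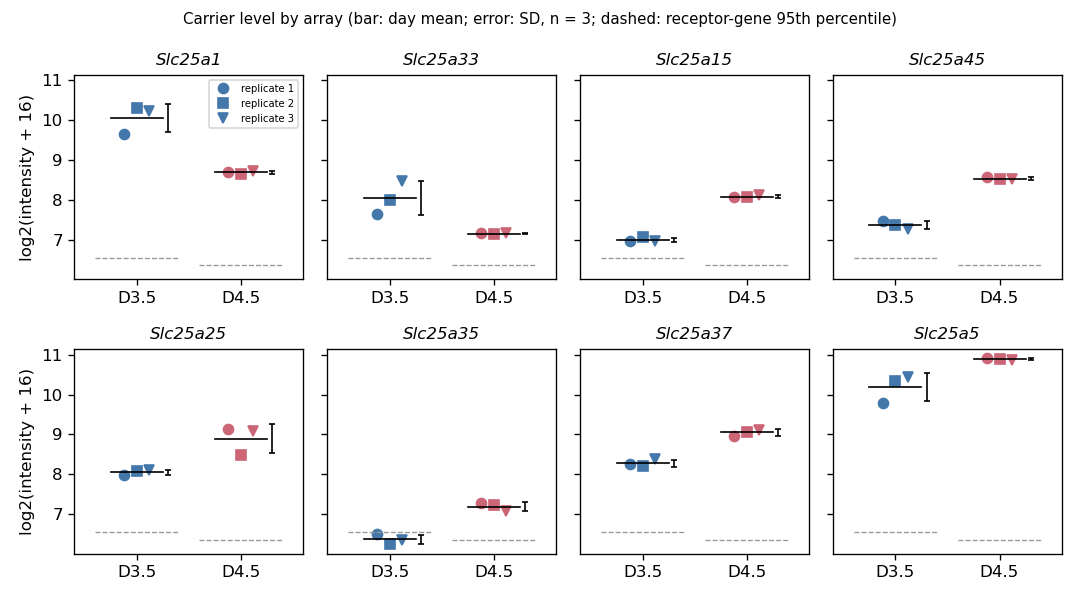
Level of 8 carriers on each array (log2(intensity + 16), quantile normalized; horizontal bar the day mean, error bar the SD of 3 arrays), with a dashed line at the receptor genes' 95th percentile of that day. In all 8 panels, each of a carrier that passed the test, the arrays of the days do not overlap, as in 12743 of all 21740 genes. D3.5 replicate 1 is the lowest of its day for Slc25a1, Slc25a33 and Slc25a5, D4.5 replicate 2 is the lowest for Slc25a25, and Slc25a35 starts below the receptor line.

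In the uncoupling branch of 6 genes, 3 were higher and 1 lower, all by less than 0.35 (50% and 16.7%, against 18% and 26.4% of all genes). Ucp2, whose protein is found in many tissues and has been linked to export of C4 metabolites from mitochondria, measured 10.77, 10.95 and 10.98 on D3.5 and 11.10, 11.16 and 11.22 on D4.5. The arrays of the days were adjacent but did not overlap, giving a change of 0.26 ± 0.08 (adjusted p = 0.0333). It no longer passed without D3.5 replicate 2, nor without any single D4.5 array (adjusted p 0.0546 to 0.096). Ucp1, the proton channel of brown fat, lay between 5.42 and 5.91 on all arrays, at receptor level, so its call (0.34, adjusted p = 0.0101, -0.13 on unscaled values) concerns a dim probe. Of 6 markers of brown fat and muscle mitochondria, Cidea, Elovl3 and Ckmt2 were at receptor level on both days, Cox6a2 and Mb were above it on both days and Cox7a1 on D3.5 alone. Cox6a2 and Cox7a1 fell (-0.37 and -0.68, adjusted p = 0.0298 and 0.00084), and the other 4 did not pass. Slc25a27 (UCP4) rose by 0.31 (adjusted p = 0.0143, lost without D4.5 replicate 2 at 0.0612 and unscaled at 0.445). Slc25a30 measured 8.61, 9.01 and 8.91 on D3.5 and 8.43, 8.49 and 8.61 on D4.5, with D3.5 replicate 1 and D4.5 replicate 3 nearly level. Its fall (-0.34, adjusted p = 0.0465) was lost on leaving out any array but D3.5 replicate 1 (adjusted p 0.0576 to 0.134). Slc25a14 (-0.01) and Ucp3 (-0.20) did not pass.

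Among the 9 amino acid carriers, 3 were higher and 1 lower (33.3% and 11.1%, against 18% and 26.4% of all genes). The largest change was that of Slc25a15, the ornithine carrier that feeds the urea cycle in liver and ornithine breakdown elsewhere. It measured 6.98, 7.06 and 6.97 on D3.5 and 8.07, 8.07 and 8.13 on D4.5. Arrays of a day lay within 0.1 of each other and the days were far apart, a rise of 1.08 ± 0.07 (adjusted p = 3.98e-05) or 2.12-fold. The second ornithine carrier, Slc25a2, was at receptor level on both days (0.11, not passed, -0.39 on unscaled values). Slc25a22, a glutamate carrier that moves glutamate with a proton, measured 7.41, 7.54 and 7.59 on D3.5 and 7.84, 7.88 and 7.95 on D4.5. These too did not overlap, with a change of 0.38 ± 0.08 (adjusted p = 0.00653, but 0.18 unscaled, adjusted p = 0.0642). The second glutamate carrier, Slc25a18, did not pass (-0.03).

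Of the aspartate-glutamate carriers, which drive the malate-aspartate shuttle, Slc25a13 (citrin) measured 8.18, 8.27 and 8.45 on D3.5 and 8.56, 8.56 and 8.71 on D4.5. Its change of 0.31 ± 0.09 (adjusted p = 0.0294) was past the test with all arrays but not when any array other than D3.5 replicate 3 was left out (adjusted p 0.0579 to 0.0851). Slc25a12 (aralar), the other form, had a change of -0.04 and did not pass. Slc25a29, a carrier of basic amino acids, measured 7.22, 6.89 and 6.91 on D3.5 and 6.62, 6.65 and 6.67 on D4.5, so D3.5 replicate 1 was the highest and the days did not overlap. It fell by 0.36 (adjusted p = 0.0217), a call that did not hold when D4.5 replicate 1 (adjusted p = 0.0669) or D4.5 replicate 2 (adjusted p = 0.0668) was left out. Slc25a38, which brings in glycine for heme synthesis (0.08), and Slc25a44, a carrier of branched-chain amino acids (0.16), did not pass.

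Among the 11 carriers of carnitine, cofactors, nucleotides and metals, 3 were higher and 1 lower (27.3% and 9.09%, against 18% and 26.4% of all genes). Slc25a37 (mitoferrin 1), an iron importer best known from red cell precursors, measured 8.25, 8.20 and 8.38 on D3.5 and 8.96, 9.07 and 9.12 on D4.5. The gap between the days exceeded the range within either, and the change was 0.77 ± 0.08 (adjusted p = 0.000351). Markers of erythroid cells did not move with it: on D3.5 their summed level ranged from 455.2 to 1037, and on D4.5 from 492.2 to 967.6, with 3 of the 6 at receptor level on both days, Klf1 and Epb4.2 among them, 2 lower and none higher. The widely expressed Slc25a28 (mitoferrin 2) did not pass (0.15).

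Slc25a33, a carrier of pyrimidine nucleotides that supports mitochondrial DNA and RNA synthesis, measured 7.65, 8.01 and 8.48 on D3.5 and 7.16, 7.14 and 7.17 on D4.5. The D3.5 arrays were widely spread, and all lay above the closely grouped D4.5 arrays. The change was -0.89 ± 0.19 (adjusted p = 0.00767), between -0.67 (without D3.5 replicate 3) and -1.09 (without D3.5 replicate 1) on leaving out an array. Its relative Slc25a36 had a change of 0.28 that did not pass. Slc25a40, a glutathione carrier, measured 6.11, 6.14 and 6.08 on D3.5, at receptor level, and 6.56, 6.67 and 6.55 on D4.5, just above it. It rose by 0.48 ± 0.07 (adjusted p = 0.00131) but not on the unscaled values (0.01). The other glutathione carrier, Slc25a39, measured 9.80, 9.90 and 9.86 on D3.5 and 9.80, 9.95 and 9.73 on D4.5. These arrays overlapped and the change of -0.03 did not pass, though it was 0.45 after median centring (adjusted p = 0.0336). Slc25a20, the carnitine-acylcarnitine carrier of fatty acid oxidation, rose by 0.29 (adjusted p = 0.043), a call lost without any array but D3.5 replicate 1 (adjusted p 0.0564 to 0.13). Slc25a26 (S-adenosylmethionine, 0.18), Slc25a32 (folate, -0.04) and Slc25a16 (0.21) did not pass.

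Among the 5 other members, Slc25a45 had the largest rise of all carriers. It measured 7.47, 7.37 and 7.27 on D3.5 and 8.58, 8.52 and 8.52 on D4.5, and the days were well separated (1.17 ± 0.08, adjusted p = 4.95e-05, 2.24-fold). Slc25a35 measured 6.49, 6.25 and 6.35 on D3.5, under the receptor gauge, and 7.27, 7.23 and 7.07 on D4.5, above it (0.83 ± 0.09, adjusted p = 0.00046). On unscaled values its change was 0.42, also past the test. Slc25a46, an outer membrane member involved in mitochondrial shape, measured 8.05, 8.003 and 7.97 on D3.5 and 7.73, 7.70 and 7.87 on D4.5. The days did not overlap in this mean of 2 rows. Read in table order, the rows went opposite ways, and the row with the highest mean gave 2.22. Rows sharing a symbol were not paired between days, so neither was read as a change of this gene. The fall of the mean (-0.24, adjusted p = 0.0299) was -0.025 after median centring (adjusted p = 0.818) and was lost without D3.5 replicate 2, D3.5 replicate 3, D4.5 replicate 1 or D4.5 replicate 2 (adjusted p 0.0607 to 0.112). Slc25a34 (-0.18) and Slc25a43 (-0.01) did not pass. The 22 carriers that did not pass had changes between -0.20 and 0.33. Their separate 95% intervals lay between -0.48 and 0.71 and differed in width, with the highest limit that of Slc25a16.

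Pairs of closely related carriers were compared within the arrays, by testing whether the difference between the members of a pair was itself different between days. These 8 pairs were chosen after the values were seen. In 7 pairs the difference on every D4.5 array lay outside its D3.5 range, with a 2-sided exact permutation p of 0.1, the smallest that 3 arrays against 3 allow (0.114 after adjustment over the 8 pairs), so none could pass 0.05. The pyrimidine nucleotide carriers parted most, Slc25a36 gaining 1.17 ± 0.21 (SE) over Slc25a33. Slc25a5 gained 0.99 ± 0.23 over Slc25a4. The value for Slc25a15 over Slc25a2 was 0.97 ± 0.11, a difference from a probe at receptor level on both days. Slc25a25 gained 0.87 ± 0.20 over Slc25a24. The gain of Slc25a37 over Slc25a28 was 0.62 ± 0.14, of Slc25a22 over Slc25a18 0.41 ± 0.07, and of Slc25a13 over Slc25a12 0.35 ± 0.15. Slc25a25 against Slc25a23 (0.65 ± 0.29) overlapped between days (exact permutation p = 0.2). A shift common to a whole array cancels in such a difference: with unscaled or median-centred values, the same differences were 1.46, 1.07, 1.23, 0.81, 0.62, 0.68, 0.38 and 0.63 in the order given.

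The scaling of the arrays touched most carriers, because the deposited values differed in level between days: D3.5 arrays had a median intensity of 108.6 to 118.4, D4.5 arrays one of 78.9 to 80.2. The median change of all genes was -0.40 with no scaling, -0.07 after quantile normalization and 0.02 after median centring, while that of the carriers was -0.12, 0.11 and 0.30. Gestation day cannot be told apart from any difference in how the arrays of each day were processed, as no scan or extraction batch is named in the labels or used here. Of the 23 carriers that passed, 9 kept their call in each of the alternatives in which they could be tested (16 or 15 of 16). These were Slc25a5, Slc25a15, Slc25a25, Slc25a35, Slc25a37 and Slc25a45, higher, and Slc25a1, Slc25a33 and the dim Slc25a21, lower. The alternatives reused the same 6 arrays, and the share of all called genes that kept their call was not counted. D3.5 replicate 1 stood apart from its companions, with a median distance from the day mean of 0.11 over the carriers against 0.06 and 0.07, and it was the farthest array of its day for 24 of the 45. The SD of the carriers was larger on D3.5 than on D4.5 in 32 of 45 (median 0.11 against 0.08).

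**Figure D3:**
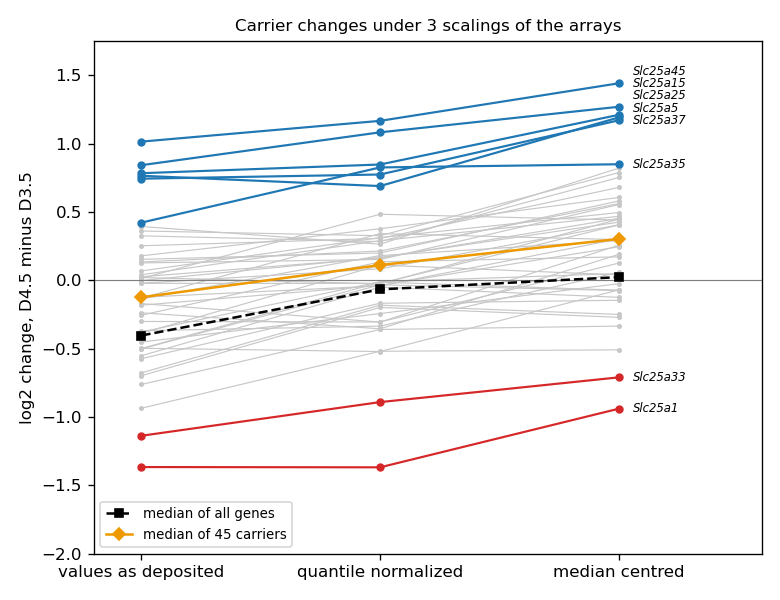
Change of each carrier (lines, log2, D4.5 minus D3.5) with the deposited values unscaled, quantile normalized and centred on array medians; the 8 coloured carriers are those shown by array. The 6 blue carriers stay above 0.4 and the 2 red ones below -0.7 in all 3 scalings, whereas the median of all genes (squares) moves from -0.40 to 0.02 and that of the carriers (diamonds) from -0.12 to 0.30.

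Genes that supply or use what the carriers move were examined in 13 lists, against the same background of 18% higher and 26.4% lower. The lists follow textbook pathways but were chosen with earlier results of these data known. Their counts and largest changes are therefore descriptions of these arrays. For list counts under the other scalings, the background of 21740 genes was 6093 higher and 4264 lower after median centring, and 2483 higher and 13431 lower unscaled. Of the 57 partner genes that met the naming rule, 36 kept their direction and call in each alternative in which they could be tested (28 of them in all 16, 7 in 15 and 1 in 14), and those named below that did not are given with the value that differed. These 57 were chosen for a small adjusted p on the same arrays, which favours keeping a call. The share kept among all called genes was not counted. Values for a row with the highest mean follow table order, and rows sharing a symbol were not paired between days, so they were not read as changes. Around citrate and pyruvate, 4 of 8 genes were higher and 3 lower. Malic enzyme Me1 rose by 2.87 (adjusted p = 9.17e-05) and ATP-citrate lyase Acly, which splits exported citrate in the cytosol, by 0.92, on arrays where the citrate carrier Slc25a1 fell by 1.37. Pyruvate carboxylase Pcx fell by 2.23 (adjusted p = 2.79e-05) and citrate synthase Cs by 0.55 (-0.022 after median centring, not passed). The subunits of the mitochondrial pyruvate carrier, which is not an SLC25 protein, went opposite ways: Brp44 (now Mpc2) rose by 1.32 and Brp44l (now Mpc1) fell by 0.90. Of the 17 citric acid cycle genes 7 were higher and 2 lower (13 and 0 after median centring, 7 and 2 unscaled). Among them Idh2, the NADP-dependent isocitrate dehydrogenase, rose by 1.47 (adjusted p = 0.000463).

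In the shuttles, the malate-aspartate enzymes had 1 of 4 higher (Got1, 0.42, lost without D4.5 replicate 1 or 2 at adjusted p up to 0.0623 and with unscaled values) and none lower, while of 3 glycerol phosphate shuttle genes Gpd2, the mitochondrial dehydrogenase, fell by 0.69 and Gpd1l rose by 0.28 (0.075 unscaled, not passed, and 0.95 in its row with the highest mean). After median centring all 4 malate-aspartate genes were higher, whereas unscaled 0 were higher and 0 lower. Of 12 carnitine shuttle and fatty acid oxidation genes 4 were higher and 2 lower (6 and 1 after median centring, 4 and 5 unscaled). Cpt1a, which makes the acylcarnitines that Slc25a20 carries, rose by 0.95 (adjusted p = 0.000262), Acaa2 by 0.78 and Acadm by 0.57, whereas Cpt2, which acts after that transport, fell by 0.94 (adjusted p = 8.68e-05) and Crat by 0.46 (-0.054 after median centring, not passed). Of 10 ornithine and proline genes 2 were higher and 2 lower (4 and 0 after median centring, 1 and 5 unscaled). The mitochondrial arginase Arg2, a source of ornithine, rose by 1.04 (adjusted p = 0.00754) and Prodh by 0.40, a call lost on leaving out D3.5 replicate 1, D3.5 replicate 3, D4.5 replicate 2 or D4.5 replicate 3 (adjusted p up to 0.0961). Ornithine aminotransferase Oat fell by 0.66, but it did not pass after median centring (-0.19), and its call needed both D4.5 replicate 1 and D4.5 replicate 2 (adjusted p up to 0.0579 with either left out).

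Of 12 heme and iron-sulfur genes 5 were higher and 2 lower (6 and 1 after median centring, 4 and 4 unscaled). The transferrin receptor Tfrc measured 5.86 to 6.24 on the D3.5 arrays, at receptor level, and 9.33 to 9.96 on the D4.5 arrays, a rise of 3.52 (adjusted p = 1.89e-05). Nfs1, the cysteine desulfurase of iron-sulfur assembly, rose by 1.08 and Cpox by 0.88, while Glrx5 fell by 0.41 (0.025 after median centring, not passed) and the erythroid Alas2 by 0.45. Of 10 one-carbon and S-adenosylmethionine genes, not all of them for mitochondrial enzymes, 7 were higher and 2 lower (8 and 2 after median centring, 6 and 2 unscaled). Gcsh rose by 1.28, Shmt1 by 0.94 and Mthfd1l by 0.88, and Mthfd2 fell by 1.78 (adjusted p = 7.55e-05), as did Gldc (-1.202). The list median was 0.42. Their carriers Slc25a32 and Slc25a26 did not pass.

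For the machinery that builds the inner membrane, 5 of 11 genes of the import route that inserts carriers were higher and 3 lower (7 and 0 after median centring, 2 and 3 unscaled). The small intermembrane chaperones Timm9 (1.08), Timm8a1 (0.76) and Timm10 (0.49) rose from receptor level, and the outer membrane subunits Tomm22 (-0.40) and Tomm40 (-0.26) and the chaperone Timm13 (-0.20) fell. None of these 3 falls passed after median centring, where the values were -0.025, 0.014 and 0.0076. In the row with the highest mean, Tomm22 was at 0.094 and Tomm40 at 0.63, the opposite sign. Tomm40 lost its call on leaving out any array but D3.5 replicate 2 (adjusted p up to 0.127), Timm13 any array but D3.5 replicate 1 (adjusted p up to 0.115), and Timm10 did not pass unscaled (0.059). Of 16 ATP synthase genes, whose product Slc25a4 and Slc25a5 export, 4 were higher and 4 lower (9 and 1 after median centring, 5 and 3 unscaled). Atp5g1 (0.62), Atp5a1 (0.58) and Atp5b (0.44) rose, and Atp5l (-0.64), Atpif1 (-0.36) and Atp5j2 (-0.29) fell, of which Atpif1 and Atp5j2 were at 0.19 after median centring and did not pass, there or unscaled. Atp5j2 was also lost without D3.5 replicate 2 or D4.5 replicate 1 (adjusted p up to 0.061). In a list of outer membrane channels, calcium uniporter genes and Efhd1, 2 of 7 rose and 2 fell. Efhd1, a calcium-binding protein of mitochondria, rose by 3.87 and the channel Vdac1 by 0.77. The uniporter genes Ccdc109a (now Mcu) and Efha1 (now Micu2) fell by 1.01 and 0.39. Efha1 was at 0.004 after median centring and was lost without any single D4.5 array (adjusted p up to 0.0851).

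Of 11 mitochondrial biogenesis factors 4 were higher and 3 lower (6 and 1 after median centring, 3 and 5 unscaled). The coactivators Pprc1 (1.10, adjusted p = 0.000115) and Ppargc1a (0.92) and the DNA packaging factor Tfam (0.50) rose, and Tfb1m (-1.03), Esrra (-0.41) and the RNA polymerase Polrmt (-0.28) fell. Esrra (-0.18) and Polrmt (0.077) did not pass after median centring nor Polrmt without D4.5 replicate 1 (adjusted p = 0.0518), Tfam (0.039) did not pass unscaled, and Ppargc1a was -0.29 in its row with the highest mean. Among 9 genes of other inner membrane transporters, 2 sideroflexins rose, the serine carrier Sfxn1 by 0.99 and Sfxn3 by 0.94, and Letm1 fell by 0.30 (-0.071 after median centring, not passed, and lost without D4.5 replicate 2 at adjusted p = 0.0542). Across the 13 lists the medians ran from -0.053 to 0.42.

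**Figure D4:**
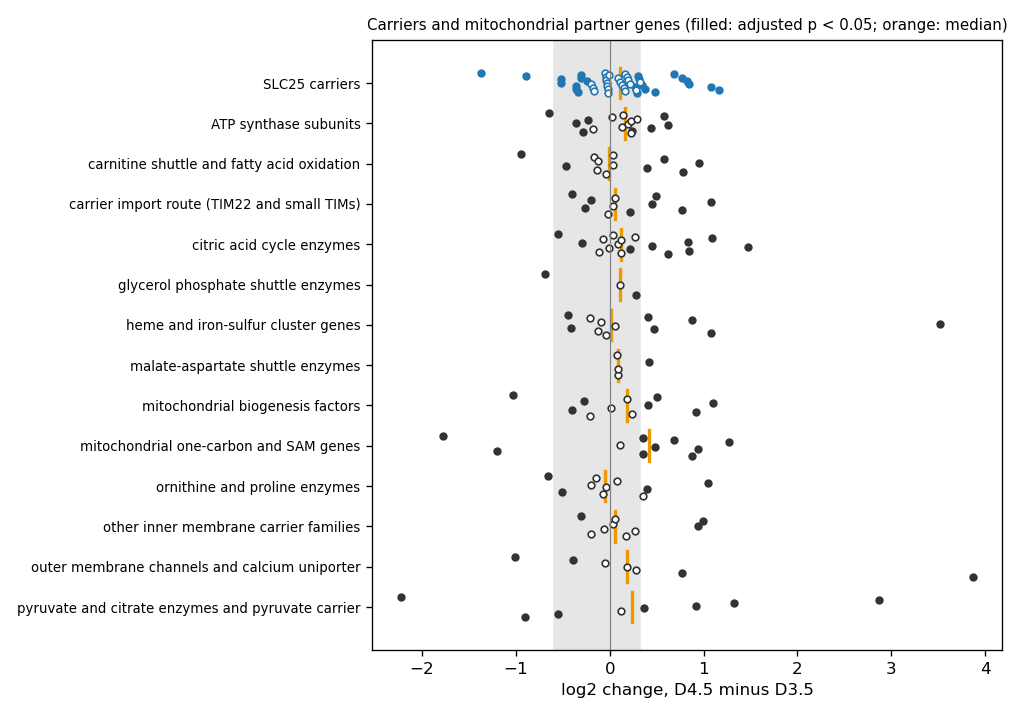
Changes of the 45 carriers and of the genes of 13 partner lists (log2, D4.5 minus D3.5, quantile normalized; each point 1 gene, filled where the adjusted p was under 0.05, orange line the median, grey band 95% of the receptor genes). Most lists hold genes on both sides of 0, with Efhd1 (3.87), Tfrc (3.52) and Me1 (2.87) farthest to the right and Pcx (-2.23) and Mthfd2 (-1.78) farthest to the left.

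The identity of the preparation was checked with markers. The summed linear level of 11 epithelial markers was similar on both days and none was dim, and those of luminal epithelium (7), stroma (11), muscle (7), endothelium (8) and leukocytes (10) overlapped between days. The stroma sum ran on D3.5 from 2935 to 4769 and on D4.5 from 1729 to 5596, and the endothelium sum from 1093 to 1898 and from 693.4 to 2252. The sum of 8 glandular markers was higher on D4.5 (655.2 to 737.9 against 494.7 to 545.2), though 3 of them rose (Spink3, Lif and Prss29) and 2 fell (Foxa2, -0.40, adjusted p = 0.0404, and the dim Cxcl15). The sum of 9 trophoblast and embryo markers was lower on D4.5, with 3 lower and none higher (506.5 to 531.9 against 642.0 to 693.4, with Pou5f1, Nanog, Prl3d1 and Tpbpa dim), and so was the sum for muscle mitochondria and brown fat (332.9 to 409.5 against 446.1 to 521.2). The part of these shifts in the carriers' changes was not tested. In such bulk samples, fewer cells of a type and less RNA per cell cannot be told apart. Of the 6 markers of muscle mitochondria and brown fat, 3 were dim on both days. Dim signal was itself lower on D4.5: 325 of the 1340 receptor genes passed as lower and 78 as higher. Their 95th percentile was 6.55 on D3.5 and 6.36 on D4.5. The part of this drift in the 2 lower sums was not tested.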

How the data were processed

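Total RNA of luminal epithelium was measured on 6 one-colour Affymetrix arrays, 3 on D3.5 and 3 on D4.5. Per the labels, cRNA was made from 1 µg RNA. The authors deposited linear intensity values per probe row. Software, summary method and genome build: not given in the sources used here. Groups came from the sample titles. The deposited p-values and ratios were not used. Values were transformed to log2(intensity + 16) and quantile normalized over 35556 complete rows. The 25070 rows with 1 symbol were averaged into 21740 genes, since rows sharing a symbol were not paired between days (Slc25a5 has 3 rows, Slc25a36, Slc25a40 and Slc25a46 have 2). Identifiers were not used: those of the 47 Slc25 rows rise by exactly 1 at all 46 steps.

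Days were compared with limma 3.58.1 (lmFit, eBayes, R 4.3.3) over all genes, with Benjamini-Hochberg adjustment, checked on simulated data. Array number limits the precision. Array values are printed for carriers of at least 2-fold and, per role, the member of highest mean level and the called member of smallest p in each direction; those of Slc25a5, Slc25a10, Slc25a22, Slc25a35 and Slc25a40 were added after their values were seen. From each partner list up to 3 called genes per direction are named. A few genes are counted but not reported here by name. Members, lists and tests were chosen with earlier results of these data known. Alternatives changed the scaling, the constant, the gene filter, the variance model, the rows per gene and the arrays used.

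Replicate numbers were not used to pair the days, as the sample titles give only a number. Deviations of same-numbered arrays correlated at -0.06, 0.056 and 0.096, and those of different-numbered arrays at -0.196 to 0.163. Such values cannot show whether arrays were collected or processed in pairs.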

Additional observations from a re-analysis of the deposited data

How the results depend on the processing

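With median centring, 6093 of all genes were higher and 4264 lower. In that setting 22 carriers were higher, 6 lower and 5 at least 2-fold, with a median change of 0.30, and 9 carriers changed sign. Of these, 6 passed the test before or after the change: Slc25a3 (0.26), Slc25a4 (0.13), Slc25a11 (0.19), Slc25a24 (0.41), Slc25a30 (0.058) and Slc25a39 (0.45). The other 3 passed neither way: Slc25a12 (0.30), Slc25a32 (0.25) and Slc25a43 (0.049). The values as deposited gave 15914 genes called (2483 higher and 13431 lower), 6 carriers higher, 16 lower and a carrier median of -0.12. There 7 carriers changed sign, of which Slc25a2 (-0.39) and Ucp1 (-0.13) passed the test before or after the change and 5 passed neither way, and 8 carriers lost their call (Slc25a3, Slc25a11, Slc25a13, Slc25a20, Slc25a22, Slc25a27, Slc25a40 and Ucp2). Of genes that passed and were at least 2-fold, 55.2% were higher after quantile normalization, 81.2% after median centring and 32.4% unscaled. A constant of 64 in place of 16 left 1 carrier at least 2-fold, Slc25a1. Only genes above the median level, which are fewer genes tested, gave 5771 genes called and a carrier median of 0.16. The row with the highest mean gave 2.22 for Slc25a46, whose rows were not paired between days, so this was not read as a change. Leaving out each array gave 9 to 12 carriers higher, 5 to 10 lower, 3 to 4 at least 2-fold, a median of 0.046 to 0.14, 6540 to 9813 genes called and 1134 to 1278 at least 2-fold. With the replicate number as a block (replicate block), 15 carriers were higher, 8 lower and 8283 genes called. The sample titles give same-numbered arrays only a number in common. The cause was not tested. The 7 carriers at receptor level on both days are limited by signal over background.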

Other observations

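Read in table order, the 2 rows of Slc25a46 gave opposite values. As deposited, with no scaling between arrays, the intensity of the first row measured 492.0, 620.4 and 602.9 on D3.5 and 59.4, 53.6 and 70.2 on D4.5. The second row measured 130.0, 104.4 and 106.9 on D3.5 and 500.7, 514.1 and 516.4 on D4.5. Arrays of a day agree closely in both rows, while the rows exchange places between the days. As rows sharing a symbol were not paired between days, a single row gives no usable change for this gene. The mean of the rows after quantile normalization, used above, gave -0.24. On the same deposited scale and in table order, the third of the 3 rows of Slc25a5 measured 566.9 to 1256 on the D3.5 arrays and 2353 to 2485 on the D4.5 arrays. The first measured 979.2 to 1651 and 1505 to 1558. These rows were not paired between days either, so the size of change of a single row cannot be stated. Across the 47 Slc25 rows lined up in the order of the table, day means correlated at 0.886, against 0.391 and 0.296 when the D4.5 values were moved by 1 row. This describes the block as a whole. The rows of Slc25a46 were part of it, so the value cannot show whether single rows were exchanged.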
